A study of Mus musculus with 14 samples.

Results

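The genes described here encode synaptic organisers of the cerebellar cortex and the proteins around them: the cerebellins Cbln1, Cbln2, Cbln3 and Cbln4, the delta glutamate receptor Grid1, the synaptic scaffold Grid2ip, the C1q-like proteins C1ql1 and C1ql3, and the adhesion G protein-coupled receptor Adgrb3. They were chosen by name, with earlier results of these data known, and all 9 were found among the 24100 genes of the deposited count table. Cerebella were taken at postnatal day 21 from littermates that were wild-type (WT) or knockout (KO) for Astn2. All the animals carried the Pcp2-Egfp-L10a transgene, in which the promoter of the Purkinje cell gene Pcp2 drives an EGFP-tagged ribosomal protein. Translating ribosome affinity purification (TRAP) pulls the tagged ribosomes down with anti-GFP antibodies, so a TRAP library holds mainly ribosome-bound RNA of Purkinje cells, and an input library holds RNA of the whole cerebellar homogenate. There were 4 WT input, 3 KO input, 3 WT TRAP and 4 KO TRAP libraries, with both sexes in every group.

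As background, cerebellins are secreted proteins of the C1q family. Cbln1, released by granule cells from parallel fibres, bridges presynaptic neurexins and postsynaptic receptors on Purkinje cell spines, and thereby holds parallel fibre synapses together. C1ql1, released by the climbing fibres of inferior olive neurons, acts in the same way on Adgrb3 on Purkinje cells, and the cell bodies of those neurons lie outside the cerebellum. The comparisons below ask which of these transcripts were on Purkinje cell ribosomes, and whether the level of any of them differed between the genotypes.

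Library totals ran from 18799609 to 54229183 counts. Astn2, the targeted gene, was at 94.5 ± 6.76 CPM (counts scaled to library size; SD, n = 4) in WT input and 0.877 ± 0.129 (SD, n = 3) in KO input, and at 130 ± 14.9 (SD, n = 3) in WT TRAP and 1.52 ± 0.448 (SD, n = 4) in KO TRAP, as labelled. In both genotypes all 8 Purkinje cell markers (Pcp2 and Calb1 among them) passed as higher in TRAP, and their summed level ran from 5759 to 6913 CPM in input and from 55570 to 73800 CPM in TRAP. The 8 granule cell markers (Gabra6 and Neurod1 among them) were all lower in TRAP, with sums of 3492 to 3794 CPM in input and 515 to 1137 CPM in TRAP. None of these markers was at 0 in any group. The TRAP libraries WT replicate 3 and KO replicate 4 stood apart for several of the genes below, and results that rest on them are given with and without them.

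The cerebellins are paralogues: in global alignments the coding sequences of their 6 pairs were 57.2 to 67.4% identical, with Cbln1 nearest to Cbln4, beside 47.0 to 50.9% between a cerebellin and a C1ql gene. Cbln1 and Cbln3, the abundant pair (579 and 591 coding bases), were 64.2% identical, and the longest run of bases that they shared was 21 bases. The 60-base stretches around that run, from coding positions 230 to 289 of Cbln1 and 242 to 301 of Cbln3, were chosen after the data were seen and are shown from the mouse GENCODE M21 transcripts, with the bases that differ between the pair in capitals.
Cbln1: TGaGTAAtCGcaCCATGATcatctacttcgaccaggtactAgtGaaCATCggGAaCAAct
Cbln3: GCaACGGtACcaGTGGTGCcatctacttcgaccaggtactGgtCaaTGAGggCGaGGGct
In these stretches 34 of 60 bases were the same. C1ql1 and C1ql3 (774 and 765 bases) were closer, at 73.5% identity, with a longest shared run of 26 bases. Their stretches from coding position 50 to 109, which hold that run, are shown in the same way.
C1ql1: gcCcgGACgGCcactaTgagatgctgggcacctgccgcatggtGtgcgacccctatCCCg
C1ql3: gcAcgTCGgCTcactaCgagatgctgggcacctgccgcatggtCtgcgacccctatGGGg
Here 49 of 60 bases were the same. How the authors assigned reads that fit more than 1 gene is not given in the sources used here.

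Cbln1 and Cbln3 were by far the most abundant of the 9 genes in whole cerebellum. Cbln1 had 1246, 1127, 1080 and 983 CPM in the 4 WT input libraries, and 908, 1105 and 927 CPM in the 3 KO input libraries. Cbln3, a cerebellin that is secreted only together with Cbln1, had 1175, 1113, 1050 and 1026 CPM in WT input, and 995, 1123 and 871 CPM in KO input. The 2 transcripts thus had nearly equal counts in every input library. Per kilobase of the longest annotated transcript, which is the scale on which different genes can be compared, the order in WT input was Cbln1 (396 ± 39.0 CPM per kb; SD, n = 4), Cbln3 (224 ± 13.8), Grid2ip (13.6 ± 1.37), Adgrb3 (10.9 ± 1.03), C1ql3 (5.74 ± 1.06), C1ql1 (3.47 ± 0.263), Grid1 (3.22 ± 0.0567), Cbln4 (0.292 ± 0.0559) and Cbln2 (0.0924 ± 0.132). Among neighbours in this order, the libraries of C1ql1 and Grid1 overlapped, as did those of Cbln4 and Cbln2, and the other neighbours did not. With the median annotated transcript length in place of the longest one, Grid1 moved up to the third place, at 22.3 CPM per kb, because 825 bases is its median length and 5720 bases its longest.

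**Figure D1:**
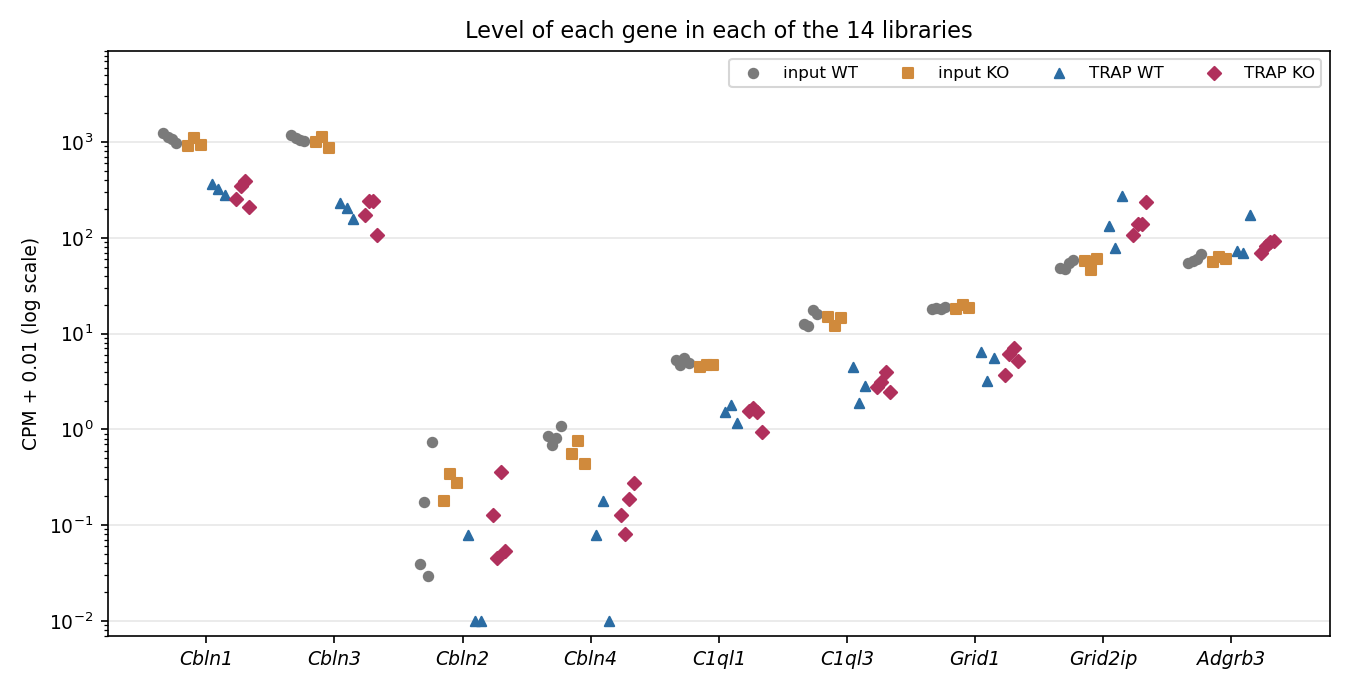
Level of each of the 9 genes in each of the 14 libraries, in CPM plus 0.01 on a log scale, with 1 point per library and a colour and shape per group. Cbln1, Cbln3, C1ql1, C1ql3 and Grid1 sit lower in the TRAP libraries than in every input library, Grid2ip and Adgrb3 sit higher, and Cbln2 and Cbln4 lie near the limit of detection.

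The ligands Cbln1, Cbln3, Cbln4, C1ql1 and C1ql3, together with the receptor Grid1, fell in TRAP relative to input in both genotypes, and Grid2ip, a postsynaptic scaffold, rose in both. Adgrb3, the C1ql receptor, was higher in TRAP in WT. In WT, 8 of the 9 genes passed an adjusted p of 0.05 (edgeR quasi-likelihood test with Benjamini-Hochberg adjustment over all genes), 2 of them higher and 6 lower. Of all 16042 genes tested, 75.5% passed, 37.0% higher and 38.5% lower, so the number that passed is near the background. In KO 7 of 9 passed, 1 higher and 6 lower, against 75.9% of all genes, of which 36.3% were higher and 39.6% lower. By the levels themselves, the TRAP and input libraries of a genotype did not overlap for 8 of the 9 genes in WT and in KO, 2 above and 6 below, beside 34.4% of all genes above and 38.2% below in WT, and 37.8% and 40.2% in KO. The median log2 fold change of the 9 genes was -1.88 in WT and -1.69 in KO, beside -0.09 and -0.11 over all genes. Fewer cells of a type and less RNA per cell cannot be told apart in these bulk libraries.

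Cbln1 had 366, 323 and 279 CPM in the WT TRAP libraries, and 253, 348, 391 and 208 CPM in the KO TRAP libraries. No TRAP library reached an input library. The log2 fold change from input to TRAP was -1.80 ± 0.19 (SE) in WT, with an adjusted p of 1.44e-06, and -1.68 ± 0.18 in KO, with an adjusted p of 1.84e-06. Cbln3 had 231, 206 and 157 CPM in WT TRAP and 174, 242, 242 and 106 CPM in KO TRAP, again below every input library. Its log2 fold change was -2.49 ± 0.23 in WT (adjusted p = 3.66e-07) and -2.34 ± 0.22 in KO (adjusted p = 3.75e-07). Both genes lay within the range of the 8 granule cell markers, whose log2 fold changes spanned -3.03 to -1.69 (WT) and -2.80 to -1.42 (KO). They also lay within the range of 6 inhibitory interneuron markers (-3.19 to -1.51 in WT, -3.55 to -1.39 in KO). The same held for the Bergmann glia and astrocyte markers and the oligodendrocyte markers in both genotypes. The range of the microglia markers in WT (-2.28 to -1.72) held Cbln1 and not Cbln3. The part of granule cell RNA in the TRAP levels of the cerebellins was not tested.

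The ratio of Cbln1 to Cbln3 was higher in every TRAP library than in every input library. The form of the permutation test run first could not pass 0.05 with this number of libraries. The number of Cbln1 counts per Cbln3 count, which does not depend on how libraries are scaled to each other, was 1.06, 1.01, 1.03 and 0.958 in the WT input libraries and 0.912, 0.983 and 1.06 in the KO input libraries. In TRAP it was 1.59, 1.57 and 1.77 in WT and 1.46, 1.44, 1.62 and 1.97 in KO, so that the lowest TRAP library lay above the highest input library. In WT, TRAP exceeded input by 0.69 on the log2 scale, which is 1.62-fold (exact two-sided permutation test, p = 0.0571, adjusted over 4 comparisons p = 0.114), and in KO by 0.71, which is 1.63-fold (exact permutation p = 0.0571, adjusted p = 0.114). With 3 libraries against 4 there are 35 splits, and 0.0571 is the smallest p that this two-sided test allows. Counted by the absolute difference, a convention added after the first p was seen, the exact permutation p was 0.0286 and the adjusted p 0.0571 in both genotypes. Between the genotypes the log2 ratio differed by -0.03 in TRAP (exact permutation p = 0.971, adjusted p = 0.971) and by -0.04 in input (exact permutation p = 0.629, adjusted p = 0.838), KO minus WT.

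Set against the summed granule cell markers of the same library, a measure chosen after the data were seen, Cbln1 and Cbln3 moved in opposite directions. This holds for the sum and not for each marker in it. By fitted log2 fold change in WT, Calb2 (-1.69) fell less than Cbln1 (-1.80), and Etv1 (-3.03) fell more than Cbln3 (-2.49). Cbln1 was 26.8 to 35.0% of the marker sum in WT input and 35.2 to 44.1% in WT TRAP, and 25.1 to 29.1% in KO input and 30.6 to 40.5% in KO TRAP. Cbln3 was 27.9 to 33.1% of that sum in WT input and 22.2 to 24.9% in WT TRAP, and 23.5 to 29.6% in KO input and 20.6 to 21.8% in KO TRAP. For each gene, the TRAP and input libraries of a genotype did not overlap, although for Cbln1 in WT the gap between the highest input and the lowest TRAP library was small. The TRAP library with the highest ratio of Cbln1 to Cbln3, KO replicate 4, also had the lowest granule marker sum, at 515 CPM, and the next one, WT replicate 3, had 634 CPM. The part of the granule marker level in the ratio was not tested.

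**Figure D2:**
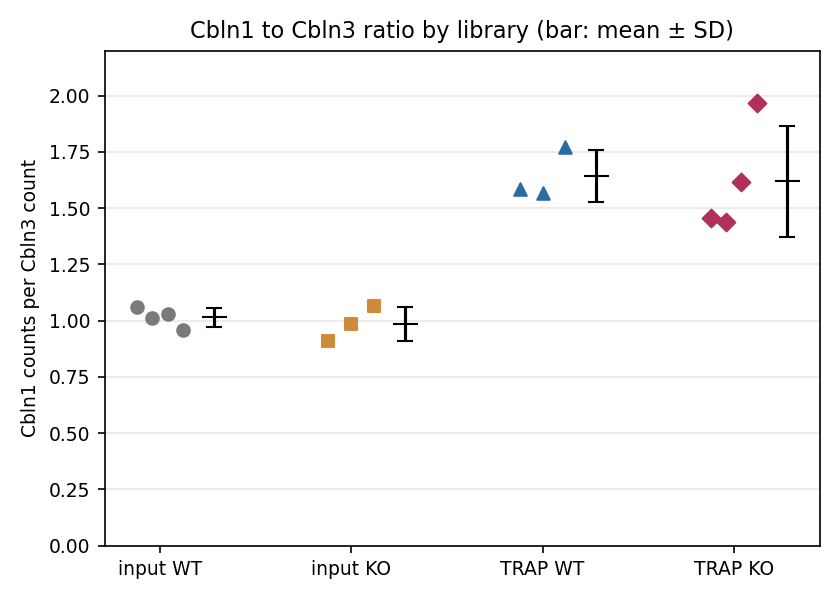
Cbln1 counts per Cbln3 count in each library, by group, with the group mean ± SD drawn as a black bar beside the points and the axis starting at 0. Input libraries lie between 0.912 and 1.06 and TRAP libraries between 1.44 and 1.97, with no overlap in either genotype.

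Cbln4 and Cbln2, cerebellins known mainly from other parts of the brain, were near the limit of detection. Cbln4 had 29, 33, 41 and 35 counts in WT input and 26, 45 and 29 counts in KO input. In TRAP it had 1, 3 and 0 counts in WT and 3, 2, 3 and 6 counts in KO, which is below every input library. Relative to library totals, the WT TRAP libraries together held 4.84% of the input level of Cbln4 (4 against 138 counts, exact 95% interval 1.30 to 12.7%), and the KO TRAP libraries held 15.9% (14 against 100 counts, 8.38 to 27.9%). These intervals cover counting error only. The fitted log2 fold changes passed the test in both genotypes (-3.49 ± 0.63, SE, adjusted p = 1.99e-04 in WT and -1.88 ± 0.50, adjusted p = 0.00370 in KO, edgeR). With so few counts the size in WT was loose: it was -2.76 without WT TRAP replicate 3 and -4.89 without WT TRAP replicate 2. Cbln2 had 1, 8, 1 and 24 counts in WT input, 8, 20 and 18 in KO input, 1, 0 and 0 in WT TRAP, and 3, 1, 6 and 1 in KO TRAP. Its groups overlapped, with 1 WT input library far above the other WT input libraries. Cbln2 did not pass in WT (adjusted p = 0.0994) or in KO (adjusted p = 0.279).

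C1ql1, the climbing fibre ligand, was scarce in whole cerebellum and scarcer in TRAP. It had 5.29, 4.66, 5.54 and 4.93 CPM in WT input, 4.46, 4.64 and 4.71 CPM in KO input, 1.5, 1.80 and 1.16 CPM in WT TRAP, and 1.56, 1.65, 1.53 and 0.929 CPM in KO TRAP. Input and TRAP did not overlap. The log2 fold change was -1.80 ± 0.21 (SE) in WT (adjusted p = 3.74e-06) and -1.69 ± 0.20 in KO (adjusted p = 3.44e-06). C1ql3, a relative made by several neuron types in the brain, had 12.7, 11.9, 17.6 and 15.9 CPM in WT input, 14.9, 11.9 and 14.6 CPM in KO input, 4.51, 1.86 and 2.82 CPM in WT TRAP, and 2.77, 3.12, 3.99 and 2.43 CPM in KO TRAP. All its TRAP libraries lay below all its input libraries. Its log2 fold change was -2.27 ± 0.27 in WT (adjusted p = 3.67e-06) and -2.17 ± 0.25 in KO (adjusted p = 2.63e-06). In the annotation, exons of C1ql3 overlap those of 2 genes on the opposite strand, Gm37811 and Gm37824, over up to 1547 bases. Whether the counting used strand is not given in the sources used here, so reads from these genes and from C1ql3 may not have been told apart.

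Grid1 encodes GluD1, a delta receptor that is found in many neurons and glia. Grid1 was steady in input, at 18.2, 18.6, 18.1 and 18.8 CPM in WT and 18.2, 19.7 and 18.3 CPM in KO. It was 6.36, 3.15 and 5.56 CPM in WT TRAP and 3.71, 6.18, 7.10 and 5.18 CPM in KO TRAP, below every input library. The log2 fold change was -1.88 ± 0.23 (SE) in WT (adjusted p = 5.23e-06) and -1.76 ± 0.21 in KO (adjusted p = 5.32e-06).

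Grid2ip, also called delphilin, is a postsynaptic scaffold of parallel fibre synapses. It had 48.7, 47.8, 54.2 and 59.2 CPM in WT input and 57.1, 46.7 and 60.6 CPM in KO input. In TRAP it had 133, 79.2 and 272 CPM in WT and 108, 141, 141 and 238 CPM in KO. All TRAP libraries lay above all input libraries, and the 2 highest values belonged to WT replicate 3 and KO replicate 4. The log2 fold change was 1.64 ± 0.31 (SE) in WT (adjusted p = 2.59e-04) and 1.43 ± 0.32 in KO (adjusted p = 0.00118). Without those 2 libraries, left out after their values were seen, it was 0.99 in WT (adjusted p = 4.35e-04) and 1.24 in KO (adjusted p = 3.39e-05). With libraries scaled by their totals alone, Grid2ip in KO was at 0.70 and did not pass (adjusted p = 0.0589). The 8 Purkinje cell markers, at log2 fold changes of 2.28 to 4.99 in WT and 1.82 to 4.73 in KO, all lay above Grid2ip. An exon of Grid2ip overlaps 480 bases of Gm20635 on the opposite strand.

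Adgrb3, also known as Bai3, is the Purkinje cell receptor of C1ql1. It had 54.9, 57.6, 59.6 and 68.1 CPM in WT input, 55.6, 63.3 and 60.5 CPM in KO input, 73.0, 70.2 and 174 CPM in WT TRAP, and 69.5, 81.8, 89.8 and 91.9 CPM in KO TRAP. The groups did not overlap in either genotype, but their nearest libraries were close. The highest input and the lowest TRAP library were at 68.1 and 70.2 CPM in WT, and at 63.3 and 69.5 CPM in KO. WT TRAP replicate 3 lay far above the other WT TRAP libraries. The log2 fold change was 0.82 ± 0.23 (SE) in WT (adjusted p = 0.00500) and 0.42 ± 0.23 in KO, where it did not pass (adjusted p = 0.118). Without WT TRAP replicate 3 the WT value was 0.26 and still passed (adjusted p = 0.0402), and the KO value was 0.43 and passed too (adjusted p = 9.29e-04). With scaling by library totals Adgrb3 was at -0.0013 in WT (adjusted p = 0.996) and -0.32 in KO (adjusted p = 0.227), so its direction depends on the scaling. That scaling moved the median of all genes by -0.82 in WT and -0.73 in KO. It shifts all genes by about the same amount. The place of Adgrb3 relative to the median gene therefore cannot show which scaling is right.

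**Figure D3:**
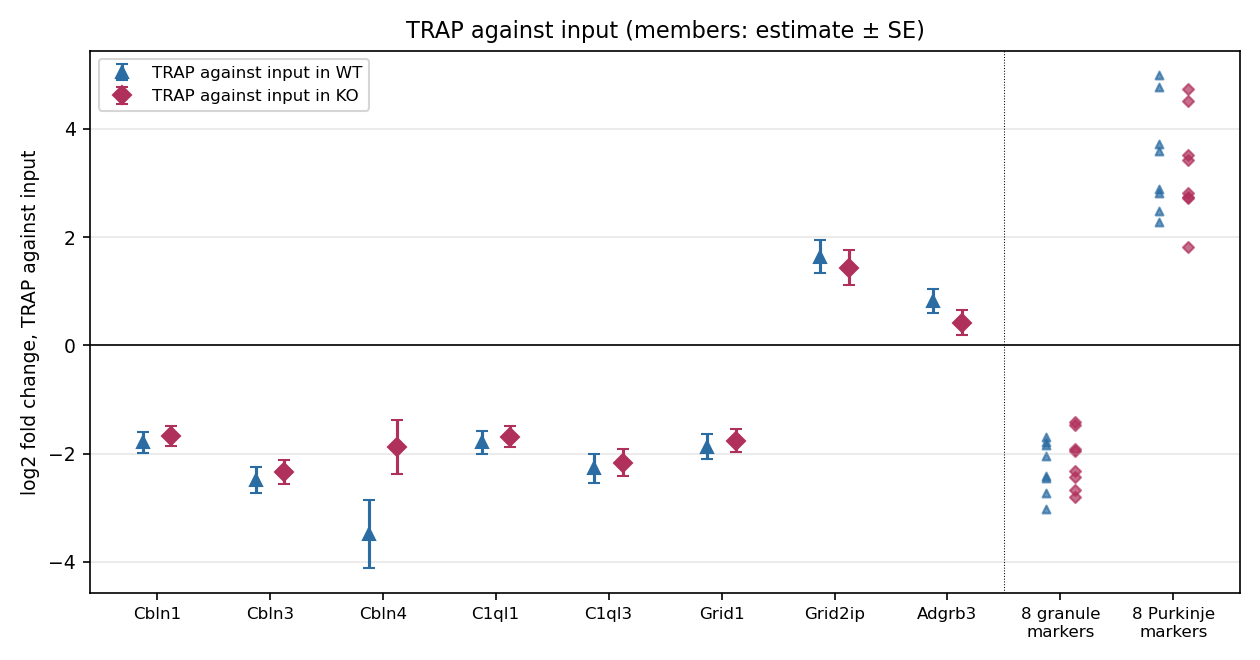
Log2 fold change of TRAP against input in WT (triangles) and KO (diamonds), as the estimate ± SE for 8 of the 9 genes (Cbln2 is left out for its low counts), beside the 8 granule cell and 8 Purkinje cell markers as single points. The ligands and Grid1 lie from -3.49 to -1.68, with the lowest value, that of Cbln4 in WT, at -2.76 without WT TRAP replicate 3, and Grid2ip and Adgrb3 lie between 0 and the lowest Purkinje cell marker, at 1.82. With scaling by library totals Adgrb3 falls to or below 0.

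The 2 TRAP libraries with high Grid2ip also differed from the others by transcript length, in bins chosen after the data were seen. Transcripts of at least 5 kb (3238 genes) had a median log2 deviation from the mean of the 7 TRAP libraries of 0.09 in WT replicate 3 and 0.07 in KO replicate 4, against -0.11 to 0.02 in the other 5 libraries. Transcripts under 2 kb (2799 genes) had -0.15 and -0.07 in these libraries, against -0.03 to 0.17 in the others. The longest annotated transcript of Adgrb3 has 5530 bases and that of Grid2ip 3865, so Grid2ip is in neither bin. In KO TRAP, Adgrb3 was at 91.9 CPM in replicate 4 and at 89.8 CPM in replicate 3. The part of this length pattern in the levels of Adgrb3 and Grid2ip was not tested.

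Promoters are shown for 1 gene that fell in TRAP, Cbln3, and for Grid2ip and Adgrb3, which rose in WT. They were chosen after the values were seen. Of the 250 bases before each RefSeq start site (GRCm38.p6, gene strand), those in an annotated exon or nearer to the start are left out, and for Grid2ip the more upstream of 2 RefSeq starts is shown. That window lies inside the Grid2ip gene as annotated in GENCODE M21, which begins further upstream, at position 143357338. Capitals mark CANNTG, the E-box core that basic helix-loop-helix factors can bind. It was searched together with AGGTCA, the half-site of ROR nuclear receptors, on both strands. RefSeq promoters were matched for 5 of the 9 genes.
Cbln3, chr14:55884393-55884506, minus strand: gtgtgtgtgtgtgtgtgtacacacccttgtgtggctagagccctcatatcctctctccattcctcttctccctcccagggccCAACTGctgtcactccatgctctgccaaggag
Grid2ip, chr5:143363663-143363907, plus strand: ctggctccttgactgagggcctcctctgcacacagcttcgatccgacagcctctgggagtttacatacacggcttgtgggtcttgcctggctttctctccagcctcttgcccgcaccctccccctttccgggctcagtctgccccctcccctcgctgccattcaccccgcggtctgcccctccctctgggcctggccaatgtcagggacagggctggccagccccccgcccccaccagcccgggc
Adgrb3, chr1:25829708-25829957, minus strand: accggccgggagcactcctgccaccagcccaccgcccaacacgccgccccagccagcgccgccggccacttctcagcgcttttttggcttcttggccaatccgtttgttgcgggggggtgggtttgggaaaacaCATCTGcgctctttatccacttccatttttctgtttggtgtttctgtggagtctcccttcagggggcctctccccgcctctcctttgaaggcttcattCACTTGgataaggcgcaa
The Cbln3 window held 1 E-box core, the Adgrb3 window 2 and the Grid2ip window 0, and none held the ROR half-site. The E-box core is common: 40.2% of the 32851 RefSeq mouse promoters held it in a window of 114 bases, 65.7% in 245 bases and 66.2% in 250 bases. The ROR half-site was in 6.60%, 13.8% and 14% of these windows.

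Partners of these proteins were compared between TRAP and input in the same way. Of a list of 18 partner and related genes, 17 were tested, and 6 were higher and 9 lower in WT, and 4 higher and 9 lower in KO, beside the background of 75.5% and 75.9% passing. The 4 neurexins and netrin receptors on the list were all lower in both genotypes, beside 38.5% of all genes lower in WT and 39.6% in KO. They were the neurexins Nrxn2 (-1.18 ± 0.16 in WT, log2, SE) and Nrxn3 (-1.10 ± 0.19), and the netrin receptors Dcc (-2.29 ± 0.35) and Neo1 (-1.54 ± 0.17). The list groups them as presynaptic, and the side of the synapse was not tested. Cbln4 is known to bind Dcc, and neurexins are the partners of Cbln1.

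Of the 8 postsynaptic genes, 5 were higher and 1 lower in WT, and 3 were higher and 1 lower in KO, beside 37.0% and 38.5% of all genes in WT and 36.3% and 39.6% in KO, so that the 3 of 8 in KO are near the background. Homer3, a scaffold of metabotropic receptors in Purkinje cell spines, rose most (3.80 ± 0.15 in WT and 3.58 ± 0.16 in KO). Shank2 (1.80 ± 0.30 and 1.62 ± 0.32) and Shank1 (1.15 ± 0.15 and 1.67 ± 0.16), scaffolds of the postsynaptic density, were higher in both genotypes. Without WT TRAP replicate 3, Shank2 in WT was at 1.16 (adjusted p = 3.77e-04, edgeR).

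Dlg2 (0.72 ± 0.23) and Magi2 (0.29 ± 0.12), membrane-associated guanylate kinase scaffolds, were higher in WT, but neither passed without WT TRAP replicate 3 (adjusted p = 0.174 and 0.302, edgeR). Dlg2 in KO passed without that library (0.40, adjusted p = 0.0204, edgeR). Without both that library and KO TRAP replicate 4 it did not pass (0.28, adjusted p = 0.0515, edgeR). In that fit Ptpn4 in KO passed as lower (-0.51, adjusted p = 0.0221, edgeR), so that 3 of the 8 genes were higher and 2 lower in KO. Magi2 in WT lost its call in 8 of the 14 fits that left out 1 library. Gopc, a Golgi protein, was lower in both genotypes (-0.42 ± 0.10 and -0.38 ± 0.10). With scaling by library totals, 2 of the 8 postsynaptic genes were higher and 3 lower in WT, and 3 were higher and 3 lower in KO. Dlg2 and Magi2 were below 0 in WT under that scaling, and Shank1 in WT, at 0.33, did not pass (adjusted p = 0.0695).

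Of the relatives and kainate receptors, 4 of 5 tested were lower and 1 higher in both genotypes, beside the same shares of all genes (38.5% lower and 37.0% higher in WT, 39.6% and 36.3% in KO). Adgrb1 (-0.76 ± 0.14 in WT) and Adgrb2 (-1.26 ± 0.15), the paralogues of Adgrb3, were lower in TRAP, as were C1ql2 (-1.74 ± 0.42) and Grik2 (-2.70 ± 0.21). Grik4, a kainate receptor subunit, was higher, at 2.61 ± 0.16 in WT and 2.44 ± 0.17 in KO. C1ql4 had too few counts to be tested.

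**Figure D4:**
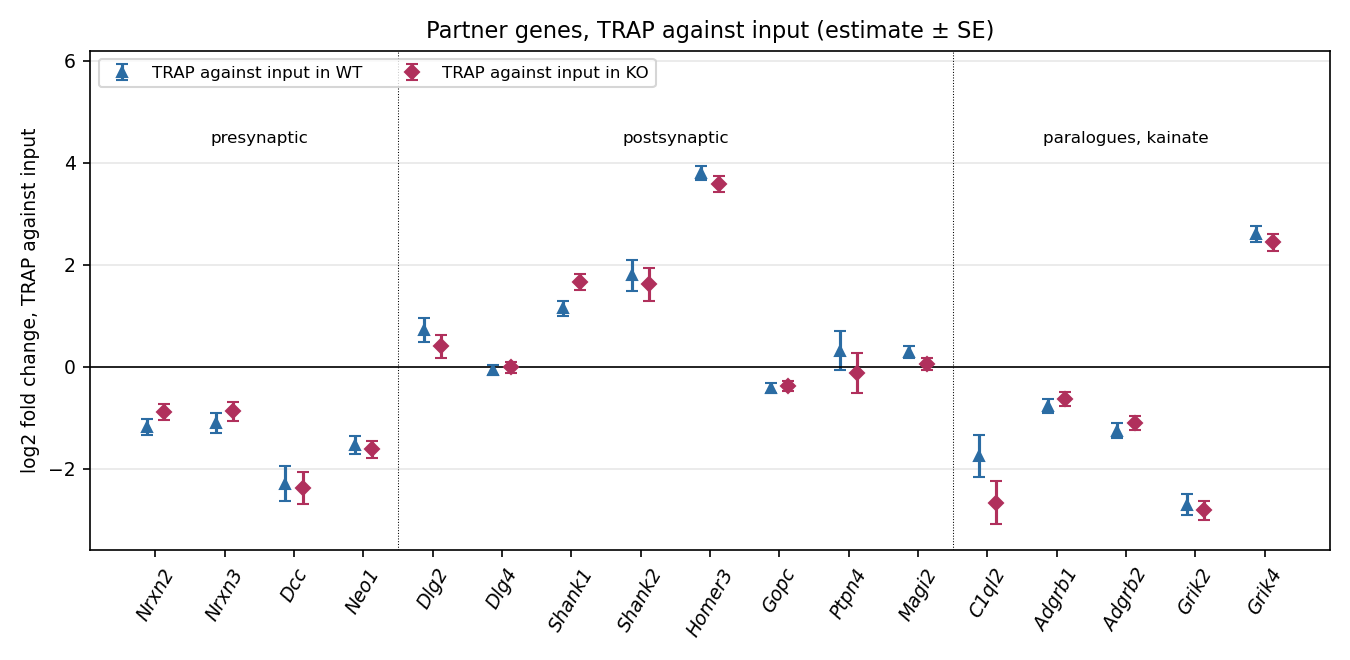
Log2 fold change of TRAP against input for the 17 partner genes tested, in WT (triangles) and KO (diamonds), as the estimate ± SE, in 3 groups. All 4 genes of the group labelled presynaptic (Nrxn2, Nrxn3, Dcc and Neo1) lie below 0, and that label is of the list and was not tested. Homer3 and Grik4 are the highest, and Dlg2 and Shank2 have wide errors. With scaling by library totals Dlg2 lies below 0 in both genotypes and Magi2 too.

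None of the genes passed the threshold between Astn2 KO and WT. In TRAP, 7 of the 9 genes had enough counts to be tested (Cbln2 and Cbln4 did not), and 0 passed an adjusted p of 0.05 (edgeR), beside 0.00707% of all genes. None of the 7 was at an unadjusted p under 0.05, beside 1.5% of all genes, and for none did the WT and KO libraries fail to overlap, beside 4.49%. The KO to WT log2 fold changes in TRAP ran from -0.23 ± 0.29 (SE) for Adgrb3 to 0.14 ± 0.32 for Grid1, each with an adjusted p of 1.00. These errors are as large as the values. In simulated data with the library sizes of this comparison, 53.2% of genes changed by 1 log2 unit were recovered. The simulation gave each gene its mean level and spread over all 14 libraries, not those of the TRAP libraries. The share recovered at the spread of the TRAP libraries is therefore not known. Smaller changes were not simulated.

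In input, 0 of the 9 genes passed, beside 0.0188% of all genes, and DESeq2 and limma also gave 0, although DESeq2 gave no adjusted p for Cbln2 and Cbln4. At an unadjusted p under 0.05 there were 3, all lower in KO, beside 13.7% of all genes. Cbln1 was at -0.26 ± 0.08 (log2, SE; unadjusted p = 0.0103, adjusted p = 0.246, edgeR), Cbln3 at -0.24 ± 0.07 (unadjusted p = 0.0103, adjusted p = 0.246) and Cbln4 at -0.72 ± 0.29 (unadjusted p = 0.0369, adjusted p = 0.336). For each of them a KO library lay within the WT range, as KO replicate 2 did for Cbln1 and Cbln3. Across the 9 genes the WT and KO input libraries overlapped every time, beside 10.4% of all genes without overlap. Beside these, the granule cell markers in input had a median log2 fold change of 0.04, from -0.24 to 0.14, and 0 of 8 passed. At an unadjusted p under 0.05 (edgeR) there were 3 of the 8. Slc17a7 (-0.24) and Gabrd (-0.22) had every KO library below every WT library, and Neurod1 (0.14) had every KO library above. The other 6 genes ran from -0.17 ± 0.11 for C1ql1 to 0.12 ± 0.11 for Grid2ip, with Cbln2 at 0.62 ± 1.01 on few counts.

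The test of whether the TRAP to input difference depended on genotype gave 0 of 9 genes, beside 0.0% of all 16042 genes, of which 430, or 2.68%, were at an unadjusted p under 0.05; none of the 9 was. Adgrb3 passed in WT and not in KO, and its difference between genotypes was -0.40 ± 0.33 (log2, SE; adjusted p = 0.999, edgeR). For Cbln4 the difference was 1.60 ± 0.90 (unadjusted p = 0.0974, adjusted p = 0.999), on the few TRAP counts given above. Of the partner list, 0 of 16 genes passed between genotypes in TRAP, where Shank1 (0.36 ± 0.20), Grik4 (-0.22 ± 0.18) and Homer3 (-0.18 ± 0.19) had the smallest p. In input 0 of 17 passed, with Ptpn4 (0.34 ± 0.08, adjusted p = 0.186), Nrxn2 (-0.20 ± 0.06, adjusted p = 0.222) and Adgrb1 (-0.19 ± 0.07, adjusted p = 0.308) nearest. Ptpn4, a tyrosine phosphatase, was called by DESeq2's Wald test (0.34, adjusted p = 0.0144).

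**Figure D5:**
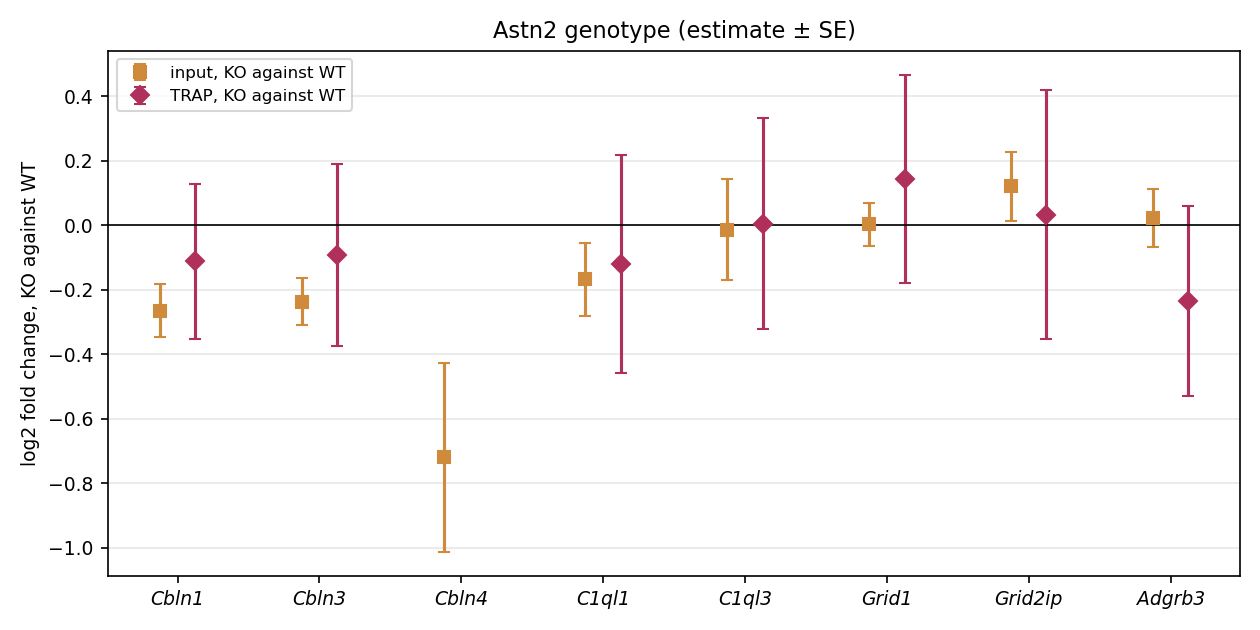
Log2 fold change of KO against WT in input (squares) and TRAP (diamonds) for 8 of the 9 genes, as the estimate ± SE; Cbln2 is left out for its low counts and Cbln4 was not tested in TRAP. Cbln1, Cbln3 and Cbln4 lie below 0 in input, at -0.26, -0.24 and -0.72, and none passed the adjusted threshold; every TRAP value lies within 1 SE of 0.

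Across the 14 libraries, each gene was compared with 16042 others by Pearson's r of log2(CPM + 1), as a description of shared pattern only, since the TRAP and input difference sets most of it. The genes most like Cbln1 were 6430571L13Rik and Lhfpl2 (both r = 0.997), and those most like Cbln3 were Dscaml1 (r = 0.998) and Cacna1i (r = 0.997). Grid1 went with Kif13b and Rims1 (both 0.993), C1ql1 with Tmem198b (0.995) and Snx22 (0.994), and C1ql3 with Prr5l (0.992) and Arhgef26 (0.990). Grid2ip went with Mink1 (0.990) and Asap1 (0.988), and Adgrb3 with Stt3b and Zdhhc5 (0.985 and 0.985). Cbln4 and Cbln2, with few counts, reached 0.969 with Gm14827 and 0.968 with Ovgp1, and 0.816 with Aass and 0.807 with Arhgap36.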

How the data were processed

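RNA of P21 mouse cerebellum was sequenced as 7 input and 7 TRAP libraries. The authors deposited whole-number counts per Entrez gene; the submitters' processing notes name Salmon 0.8.2 and mm10, with no role given, and strand and annotation are not given in the sources used here. Symbols came from RefSeq (24045 of 24100 genes). Counts were tested with edgeR 4.0.16 (quasi-likelihood, TMM, filterByExpr, sex as a covariate, Benjamini-Hochberg over all genes tested, threshold 0.05), per fraction for genotype and over 14 libraries otherwise; SE is the log2 fold change divided by the root of F. CPM uses TMM scaling. Alternatives were DESeq2 1.42.0, limma 3.58.1, other scalings and filters, a replicate block and leaving libraries out. The test was checked on simulated data. Replicates are libraries that the labels number; nothing says which came from separate animals, so p-values measure the spread between libraries. All members in every comparison, and the partner list where it passed, are named; 2 genes written in that list beside the 18 counted are not reported here. Members, lists and markers were chosen with earlier results of these data known. Positions are from GENCODE M21 (GRCm38).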

Additional observations from a re-analysis of the deposited data

Results flagged for a closer look

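C1ql1 in TRAP KO replicate 4 lay far from the other 3 KO TRAP libraries: its log2(CPM + 1) was 0.95 against 1.34 to 1.41, and the gap was 0.848 of the group's range, above the 95% critical value of Dixon's test for 4 samples. This was 1 of 20 values examined, and chance gives about 1 in 20. The library had 21 counts of C1ql1, and it is the KO TRAP library with the highest Grid2ip and the lowest granule cell marker sum.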

How the results depend on the processing

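Of the TRAP to input log2 fold changes of the 9 genes, 248 of 250 with 1 library left out and 148 of 156 under other settings kept their direction and side of the threshold; for Cbln1, Cbln3, Cbln4, Grid1, C1ql1 and C1ql3 each value computed did. Scaling by library totals took Adgrb3 to -0.0013 in WT and -0.32 in KO and Grid2ip in KO to 0.70, where it did not pass. Cbln2 turned to 0.0627 in WT with limma quality weights, and passed in WT with library totals (-4.02), DESeq2's Wald test (-3.35) or without input WT replicate 3 (-3.75). Adgrb3 in KO passed with quality weights (0.50), without TRAP WT replicate 3 and without both far TRAP libraries. For each change named here and below, the cause was not tested.

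The genes called between genotypes in TRAP were 1, and 3 with DESeq2's Wald test, 4 with quality weights and 2 with all 14 libraries in 1 fit; leaving out 1 library gave 1 to 2. In input they were 3, and 294 with DESeq2's Wald test, 8 with quality weights, 23 when no gene was filtered out and 5 when scaled by DESeq2 size factors; leaving out 1 library gave 1 to 158, the 158 without KO replicate 2. The interaction gave 0, and 1 with DESeq2's Wald test. None of the 9 genes was among those called in any of these. 

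No member passed in a genotype or interaction comparison under any setting. In input, Cbln1, Cbln3, Cbln4, Grid2ip and C1ql1 kept their sign in each alternative run, as did Cbln4 in the interaction; the other genes, and each gene tested in TRAP, changed sign in 1 or more. In TRAP, quality weights gave C1ql1 0.0203, C1ql3 -0.32 and Adgrb3 0.13, no sex covariate gave Grid2ip -0.0339, and leaving out both far libraries gave Cbln3 0.0168 and Adgrb3 0.19. In input, library totals gave Grid1 -0.01, quality weights gave Grid1 -0.008 and no sex covariate gave Adgrb3 -0.0237. For the interaction, quality weights gave Cbln2 -1.31, Grid2ip 0.0161, C1ql3 -0.28 and Adgrb3 0.085, and leaving out both far libraries gave Grid2ip 0.25 and Adgrb3 0.16.

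Leaving out 1 library in turn, the genotype value in TRAP ran from -0.40 to 0.0513 for Cbln1, -0.46 to 0.14 for Cbln3, -0.11 to 0.51 for Grid1, -0.31 to 0.53 for Grid2ip, -0.27 to 0.0840 for C1ql1, -0.28 to 0.46 for C1ql3 and -0.47 to 0.22 for Adgrb3. In input it ran from -0.0595 to 3.01 for Cbln2, -0.0434 to 0.0775 for Grid1, -0.0972 to 0.0974 for C1ql3 and -0.0607 to 0.14 for Adgrb3. The interaction ran from -0.0693 to 0.25 for Cbln1, -0.0480 to 0.30 for Cbln3, -0.12 to 0.34 for Grid1, -0.56 to 0.40 for Grid2ip, -0.0441 to 0.35 for C1ql1, -0.14 to 0.46 for C1ql3 and -0.62 to 0.17 for Adgrb3. The KO to WT log2 ratio of Cbln1 to Cbln3 ran from -0.0988 to 0.0127 in input and from -0.13 to 0.0275 in TRAP. A pseudocount of 1 CPM changed no call on this ratio. No call was possible, since 0.0571 is the smallest p that its exact two-sided permutation test allows.

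Same-numbered input and TRAP libraries correlated in their deviations from group means at 0.0981 to 0.29 in WT and -0.13 to 0.23 in KO. In WT 3 of 3 and in KO 2 of 3 input libraries correlated best with their own number. Seen from the TRAP side, replicates 1 and 2 of each genotype did so, and replicate 3 did not. WT TRAP replicate 3 correlated at 0.18 with input replicate 4, against 0.0981 with its own number. KO TRAP replicate 3 correlated at 0.17 with input replicate 2, against -0.13 with its own number. Same-numbered input and TRAP libraries of a genotype were also of the same sex. These are hints only. No label says that a number joins an input and a TRAP library, and the main fits did not treat replicate numbers as pairs. With a replicate block the genes called in input were 1 and those in TRAP 1. For genotype, this block joined KO and WT libraries of the same number. Such libraries correlated at -0.20 to -0.046 in TRAP, where 0 of 3 KO libraries correlated best with their own number. In input they correlated at -0.0311 to 0.14, with 2 of 3. The genotype values in TRAP with the block were 0.0263 for Cbln1, 0.15 for Cbln3, -0.14 for Grid2ip and 0.11 for C1ql1. The block changed no call of a member, and Cbln2 was not tested between fractions with it. Levels of Cbln2 and Cbln4 are limited by counts of 0 to 6 in TRAP, and those of the other genes by the spread between TRAP libraries.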
